A study of Mus musculus with 2 samples.

Results

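The colony-stimulating factors and their receptors were described here as 8 genes of the 27998 in the deposited gene table. They were taken by name as 4 ligands (Csf1, Csf2, Csf3 and Il34) and 4 receptor chains (Csf1r, Csf2ra, Csf2rb and Csf3r), and their counts were summed over the cells of each deposited cell type label on each day. All 8 genes had counts in both libraries. The study profiled regenerating mouse skeletal muscle by droplet single-cell RNA sequencing (10x Chromium v3). The 2 libraries came from whole tibialis anterior muscle, from the front of the lower leg, of mice labelled C57Bl/6 (C57BL/6J in the study's methods) injured with notexin, a snake venom toxin that destroys muscle fibres. The groups were muscle collected at day 2 and at day 7 after notexin, each being 1 library from 1 mouse, and no uninjured library and no further animal was analysed here. The sample labels describe both mice as female (F) and 7 months old, whereas the deposited cell annotation gives both as male, aged 4 months at day 2 and 7 months at day 7. Over all called barcodes, Xist had 5 counts at day 2 and 1 at day 7, while 4 Y-linked genes had 6575 and 4856, which goes against the label of female mice. Age and time after injury therefore cannot be told apart if the annotation is right.

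Colony-stimulating factors are secreted proteins that control the survival, proliferation and maturation of myeloid cells. CSF-1, encoded by Csf1, and IL-34 both bind the tyrosine kinase CSF-1 receptor, on which most monocytes and macrophages depend. GM-CSF, encoded by Csf2, binds an alpha chain encoded by Csf2ra that pairs with the common beta chain encoded by Csf2rb, and G-CSF, encoded by Csf3, acts through the receptor encoded by Csf3r, the main driver of neutrophil production. In injured muscle, fibro-adipogenic progenitors (FAPs), which are the resident connective tissue progenitors, endothelial cells and leukocytes are all known sources of such factors, and neutrophils, monocytes and macrophages are their best known targets.

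Promoters from RefSeq (build GRCm38.p6) were kept here for 4 of the 8 members: Csf1, Csf2, Csf2ra and Csf3r. Whether RefSeq holds a promoter entry for the other members cannot be read from this set. The 250 bases before the start of Csf1 are shown because this ligand had the most counts of the 4 ligands, and those of Csf2ra because it is a receptor chain read here in myeloid cells. Both genes lie on the minus strand, and both sequences run 5′ to 3′ towards the start of the gene. Capitals mark matches to searched motifs, which were an NF-kB consensus, the PU.1 core GAGGAA, the AP-1 sites TGACTCA and TGAGTCA and the C/EBP motif (TTGC, any 2 bases, AA), on either strand and with no motif overlapping another in these windows.
Csf1 (chr3:107760470-107760719): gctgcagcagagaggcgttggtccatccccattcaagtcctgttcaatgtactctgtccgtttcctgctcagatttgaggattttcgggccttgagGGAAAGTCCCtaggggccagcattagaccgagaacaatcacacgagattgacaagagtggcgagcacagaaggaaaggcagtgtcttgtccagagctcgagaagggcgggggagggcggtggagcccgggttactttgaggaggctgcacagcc
Csf2ra (chr19:61228419-61228668): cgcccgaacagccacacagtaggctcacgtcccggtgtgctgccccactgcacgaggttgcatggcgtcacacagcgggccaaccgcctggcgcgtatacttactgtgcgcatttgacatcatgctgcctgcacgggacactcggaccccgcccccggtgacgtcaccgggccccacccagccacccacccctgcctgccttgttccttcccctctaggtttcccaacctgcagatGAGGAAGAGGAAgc
The Csf1 window held an NF-kB consensus match on the reverse strand, from base -154 to -145 before the start, and such a match was found in 5.93% of 32851 promoters of the same length. The Csf2ra window held the PU.1 core on the forward strand at -14 to -9 and again at -8 to -3, and 23.3% of promoters held at least 1 such core. These matches describe letters only, and binding was not measured.

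The filtered table of day 2 held 4836 called barcodes and a total of 41123913 counts of unique molecular identifiers (UMIs), and that of day 7 held 4889 and 32356088. After the limits on cells, 3178 labelled cells were kept at day 2, with a median of 9058 counts, and 3196 at day 7, with a median of 6583, and 1 kept barcode sequence occurred in both libraries. Their 25 labels were gathered into 12 classes. Levels are given as CPM, the share of a gene in the summed counts of a class or label times 1e6, so that they compare 1 gene across cells and not different genes with each other. Ranges in parentheses are 95% intervals that cover counting error only. With 1 library per day there is no replicate check and no test between days, so a difference was read against counting error and called only as past 2-fold or not.

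Markers were checked first, since levels depend on the labels. All 215 day 2 and 805 day 7 FAPs, 334 of 336 and 333 of 333 endothelial cells, and 1290 of 1292 and 755 of 757 monocytes and macrophages held at least 3 counts of their own marker list. Among day 2 neutrophils 677 of 708 did so, but only 1 of the 10 cells labelled as neutrophils at day 7, for which levels are therefore not compared. Cells labelled Smooth Muscle carried more endothelial than smooth muscle and pericyte marker counts, with 4066 against 2229 CPM at day 2 and 6577 against 4564 CPM at day 7. The 22 myogenic cells at day 2 carried 22300 CPM of erythroid markers and 5 of them held at least 3 myogenic marker counts. The 71 T and NK cells (T/NK) at day 2 carried 1344 CPM of basophil and mast cell markers. Free RNA was read in barcodes of at most 100 counts, and the level of each member there is given with its account.

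**Figure D1:**
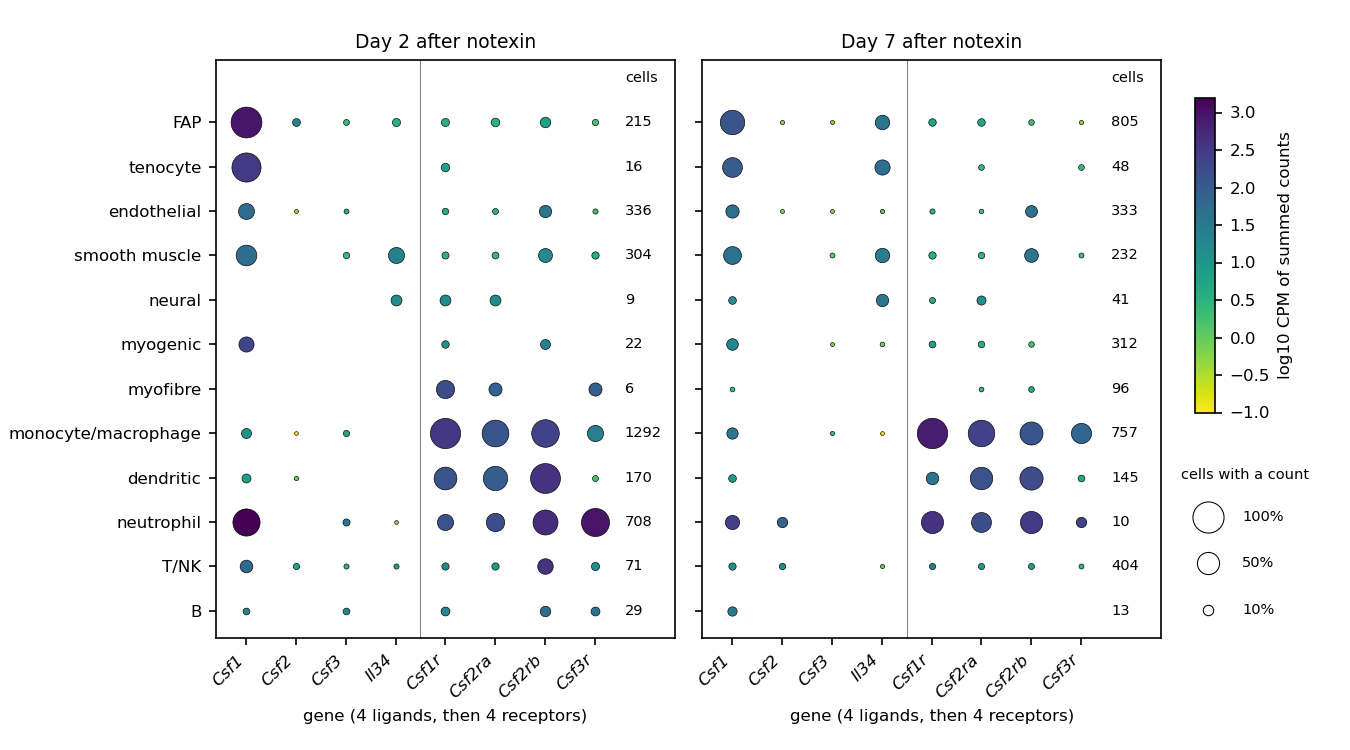
The 8 members (columns) in 12 classes (rows) at day 2 and day 7. Colour gives log10 CPM of the summed counts, dot area the share of cells with at least 1 count, and the numbers at the right the cells in each class; an empty place is 0 counts. The ligand Csf1 stood in FAPs and, at day 2, in the 708 neutrophils, and the receptors stood in the myeloid classes.

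The source of Csf1, the survival factor of macrophages, was examined first among the ligands. At day 2 it was found at the highest level in neutrophils, with 1544 CPM (1490 to 1601) from 3008 counts, and next in FAPs, with 931 CPM (905 to 958) from 4779 counts. Endothelial cells held 55.7 CPM (46.7 to 65.9), cells labelled Smooth Muscle 52.1 CPM (46.0 to 58.7), and monocytes and macrophages 11.7 CPM (10.1 to 13.5). Of these, the endothelial and Smooth Muscle intervals overlap, and both stand above that of monocytes and macrophages. Free RNA held 135 CPM (122 to 148) of Csf1 at day 2, above the levels in the endothelial cells, the Smooth Muscle cells and the monocytes and macrophages. At day 7 FAPs held 127 CPM (120 to 135), endothelial cells 45.9 CPM (36.2 to 57.4), Smooth Muscle cells 43.2 CPM (35.7 to 51.8) and monocytes and macrophages 33.6 CPM (29.6 to 38.1), with 31.0 CPM in free RNA.

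In FAPs Csf1 was 7.32-fold lower at day 7 than at day 2, a log2 ratio of -2.87 (-2.97 to -2.78). It was detected in 211 of 215 FAPs at day 2 and in 493 of 805 at day 7. Because the median FAP held 24330 counts at day 2 and 8429 at day 7, cells were also thinned to 2000 counts each, shallower cells being left out, which gave a share with Csf1 of 78.9% at day 2 and 22.4% at day 7. B cells, used as the comparison for ligands, had Csf1 in 1 of 29 cells at day 2 and 1 of 13 at day 7, with median depths of 2775 and 2430 counts. Each FAP label held Csf1 at a lower level at day 7. In pro-remodeling FAPs, 929 CPM stood against 112 CPM (log2 ratio -3.06), in adipogenic FAPs 761 against 140 CPM (-2.45) and in stem FAPs 984 against 241 CPM (-2.03). At day 7 the stem FAPs held the highest level of the 3 labels, and the intervals of their ratio (-2.28 to -1.78) and of that in pro-remodeling FAPs (-3.18 to -2.94) did not overlap.

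Day 2 neutrophils held Csf1 in 538 of 708 cells at a median depth of 2351 counts. The 677 cells with at least 3 neutrophil marker counts held 2847 of the 3008 counts, at 1531 CPM, against 1834 CPM in the rest, from 161 counts. The 111 cells with at least 3 counts of FAP markers held it at 1071 CPM against 1669 CPM in the rest. Of all Csf1 counts in kept cells at day 2, FAPs held 56.3% (55.2 to 57.4) while making up 6.77% of the cells, and neutrophils held 35.4% (34.4 to 36.5) while making up 22.3%. At day 7 FAPs held 63.5% (61.1 to 65.9) of the Csf1 counts with 25.2% of the cells, and monocytes and macrophages held 15.5% (13.8 to 17.4). Such shares follow the number of cells captured, which the dissociation sets in part. With each class of at least 20 cells weighted equally the FAP share was 32.0% at day 2 and 31.8% at day 7, and with the smaller classes included it was 28.95% and 18.2%. The day 7 value then rests on the 10 cells labelled as neutrophils, which held 272 CPM (109 to 560) from 7 counts.

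The vascular classes gave small differences in Csf1. The log2 ratio was -0.28 (-0.70 to 0.14) in endothelial cells and -0.27 (-0.60 to 0.05) in Smooth Muscle cells, and both intervals hold 0. Without cells that held markers of another compartment the Smooth Muscle ratio was -2.50, and the part of those cells in the result was not tested. For this label the filter took out cells with at least 3 counts of stromal, endothelial or immune markers. The cells it left are not counted here, while 287 of the 304 day 2 and 196 of the 232 day 7 cells held at least 3 endothelial marker counts. Among endothelial labels, capillary cells held 55.0 and 54.1 CPM, and endothelial stem cells 53.3 and 23.7 CPM (log2 ratio -1.17, -2.28 to -0.19, from 42 and 11 counts). MuSCs, the muscle stem cells, had 18 counts at day 2, of which 15 lay in the 5 cells with at least 3 myogenic marker counts, and held 225 CPM (133 to 355) at day 2 against 22.6 CPM (13.2 to 36.2) at day 7. Both MuSC intervals overlapped those of free RNA, 122 to 148 CPM at day 2 and 26.3 to 36.3 CPM at day 7, and the levels of endothelial stem cells did not exceed free RNA on either day. Tenocytes held 310 CPM (230 to 410) in 16 cells at day 2 and 94.0 CPM (67.8 to 127) in 48 cells at day 7.

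In monocytes and macrophages Csf1 was higher at day 7, with a log2 ratio of 1.52 (1.25 to 1.80). Its level of 11.7 CPM at day 2 lay below the 135 CPM of free RNA, and its 33.6 CPM at day 7 overlapped the 31.0 CPM (26.3 to 36.3) of free RNA, whose part in this result was not tested. The mean over cells gave 0.98 and SoupX-corrected values 1.96. Only 118 of 1292 cells at day 2 and 91 of 757 at day 7 held a count, and the highest cell had 11 counts at day 2 and 24 at day 7. The difference stood in patrolling monocytes, with 16.9 CPM at day 2 and 80.3 at day 7 (log2 ratio 2.25, 1.75 to 2.77), and in M1 macrophages, with 11.8 and 32.9 CPM (1.48, 1.05 to 1.91). Of these 4 levels, that of patrolling monocytes at day 7 (66.3 to 96.4) stood above free RNA. The Cx3cr1_lo M2 macrophages went from 25 counts to 0 at day 7, at least 1.15-fold lower by the exact interval. In the Cx3cr1_hi M2 macrophages the level was 14.98 CPM at day 2 and 4.89 at day 7, from 13 and 6 counts. Of the 253 day 7 counts, 191 lay in the 429 cells with at least 3 counts of FAP markers, at 36.4 CPM against 27.3 CPM in the rest, and the part of FAP transcripts in this result was not tested.

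**Figure D2:**
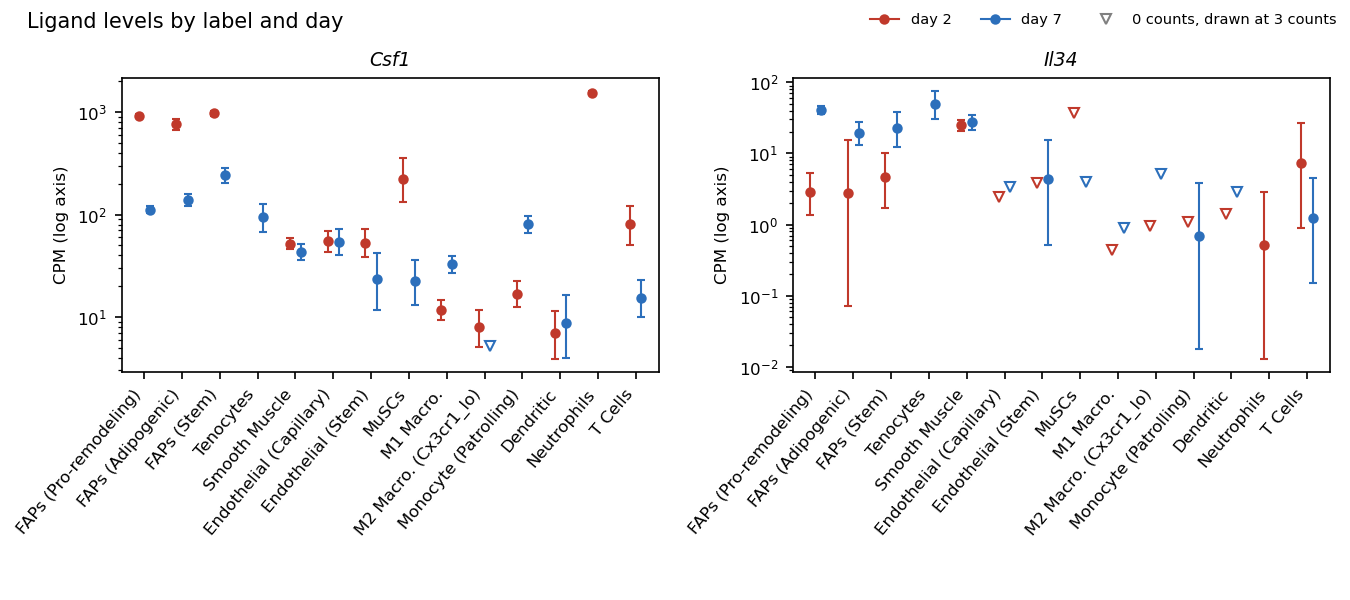
CPM of Csf1 and Il34 (log axes) in 14 deposited labels at day 2 (red) and day 7 (blue). Points are summed counts of 1 library per day, bars are exact Poisson intervals, open triangles are 0 counts drawn at the level of 3 counts, and labels with under 20 cells on a day are left out. Csf1 was lower at day 7 in all 3 FAP labels and Il34 higher, while both levels in Smooth Muscle overlapped between days.

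Il34, which encodes the second ligand of the CSF-1 receptor, had a different distribution. At day 2 it was a transcript of cells labelled Smooth Muscle, with 127 counts in 78 of 304 cells and 24.9 CPM (20.7 to 29.6). FAPs held 17 counts in 12 of 215 cells and 3.31 CPM (1.93 to 5.30), and monocytes, macrophages and endothelial cells held 0 counts at day 2. At day 7 Smooth Muscle cells held 27.3 CPM (21.4 to 34.3) in 48 of 232 cells, a log2 ratio of 0.14 (-0.30 to 0.56), which allows no difference beyond counting error. FAPs held 286 counts in 167 of 805 cells and 35.1 CPM (31.1 to 39.4), 10.6-fold above day 2, a log2 ratio of 3.41 (2.70 to 4.21).

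The share of FAPs with Il34 after thinning was 0.939% at day 2 and 5.86% at day 7, and B cells had it in 0 of 29 and 0 of 13 cells, with exact upper bounds of 11.9% and 24.7%. Pro-remodeling FAPs held 2.85 CPM at day 2 and 40.8 at day 7 (log2 ratio 3.84, 2.93 to 4.92), adipogenic FAPs 2.81 and 19.4 CPM (2.79, 0.21 to 8.14) and stem FAPs 4.73 and 22.8 CPM (2.27, 0.80 to 3.94). The adipogenic and stem ratios rest on 1 and 6 counts at day 2. Tenocytes had 0 counts at day 2 in 16 cells and 22 at day 7 in 48 cells, a level of 49.2 CPM (30.9 to 74.6) that overlaps that of the FAPs, and neural cells held 37.3 CPM (16.1 to 73.5) at day 7 from 8 counts. Within the Smooth Muscle label, 126 of the 127 day 2 counts and 74 of the 74 day 7 counts lay in the 203 and 150 cells with at least 3 smooth muscle and pericyte marker counts. The 17 day 2 Smooth Muscle cells with under 3 endothelial marker counts held Il34 at 164 CPM from 13 counts, against 22.7 CPM from 114 counts in the other 287. Il34 was thus carried by cells with smooth muscle and pericyte transcripts, although most of its day 2 counts lay in cells that also held endothelial transcripts. Smooth Muscle cells held 85.8% (79.1 to 91.0) of the 148 Il34 counts at day 2, and FAPs held 71.9% (67.2 to 76.2) of the 398 at day 7. The Smooth Muscle share was 51.4% without cells that held markers of another compartment, and the FAP share was 23.1% with classes weighted equally, with or without those under 20 cells. Free RNA held 0.982 CPM (0.203 to 2.87) of Il34 at day 2, an interval that overlapped that of FAPs on that day, and 6.65 CPM at day 7. Il34, on chromosome 8 (110741829 to 110805924, build GRCm38, minus strand), overlaps Gm15894 and Gm15895 on the opposite strand, and whether the counting used strand is not given in the sources used here.

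Csf2 and Csf3 were sparse. Csf2 had 117 counts in kept cells at day 2, and 111 of them lay in 11 of the 215 FAPs, at 21.6 CPM (17.8 to 26.0). Those counts were concentrated in a handful of cells, since the top 3 FAPs held 39, 31 and 26 counts, or 86.5% of the total. At day 7 FAPs had 4 counts in 4 of 805 cells, a log2 ratio of -5.46 (-7.36 to -4.07), and without the top 3 cells of day 2 the ratio was -2.61 (-4.65 to -0.95, from 15 and 4 counts). The FAPs with Csf2 at day 2 were mostly pro-remodeling, which held 109 counts. No FAP at day 2 held 3 counts of T cell markers or of basophil and mast cell markers, and the 6 that held 3 neutrophil marker counts had 0 Csf2 counts. B cells held 0 Csf2 counts in 29 cells at day 2 and 13 at day 7.

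At day 7 Csf2 had 39 counts, of which 32 lay in 12 of the 404 T/NK cells, at 15.1 CPM (10.3 to 21.3), with 9, 5 and 3 counts in the top 3 cells. T/NK cells at day 2 had 2 counts in 71 cells, and the interval of the log2 ratio (-0.51 to 4.56) holds 0. The 215 day 7 cells with at least 3 counts of the T cell markers held 4 of the 32 counts and the 216 with at least 3 of NK cell markers held 9, and of the 12 cells with Csf2, 2 held 3 counts of the T cell list alone, 4 of the NK cell list alone, 1 of both and 5 of neither. Those 5 cells held 21 of the 32 counts. Free RNA held 1.31 CPM of Csf2 at day 2 and 2.01 at day 7. Csf2, on chromosome 11 (54247271 to 54249667, minus strand), overlaps Gm12223 on the opposite strand.

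Csf3, the neutrophil growth factor, had 206 counts in kept cells at day 2 and 24 at day 7, or 6.05 and 0.869 CPM, a log2 ratio of -2.80 (-3.48 to -2.19). At day 2 monocytes and macrophages held 97 of these counts in 36 of 1292 cells, or 5.88 CPM (4.77 to 7.18), and neutrophils held 72 in 28 of 708 cells, or 37.0 CPM (28.9 to 46.6). FAPs held 13 counts in 5 cells, cells labelled Smooth Muscle 11 and endothelial cells 10, at 2.53, 2.15 and 4.12 CPM. These levels overlap each other within counting error. Free RNA held 6.55 CPM (4.001 to 10.1) of Csf3 at day 2, which is not exceeded by the stromal and vascular levels or by that of monocytes and macrophages, whereas the neutrophil level lay above it. B cells had Csf3 in 1 of 29 cells at day 2, with 2 counts. In monocytes and macrophages Csf3 was 1.86 CPM at day 7 (log2 ratio -1.66, -2.58 to -0.84), where 1 cell held 10 of the 14 counts and free RNA held 0 counts of Csf3. Patrolling monocytes went from 35 counts to 0 at day 7, at least 4.64-fold lower by the exact interval, and M1 macrophages had 4.43 and 3.29 CPM (log2 ratio -0.43, -1.57 to 0.61). At day 2, 1 monocyte or macrophage held 24 of the 97 counts of that class and the top 3 held 42.3%. Their part in these label ratios was not tested. Of the 72 day 2 counts in neutrophils, 70 lay in the 677 cells with at least 3 neutrophil marker counts.

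**Figure D3:**
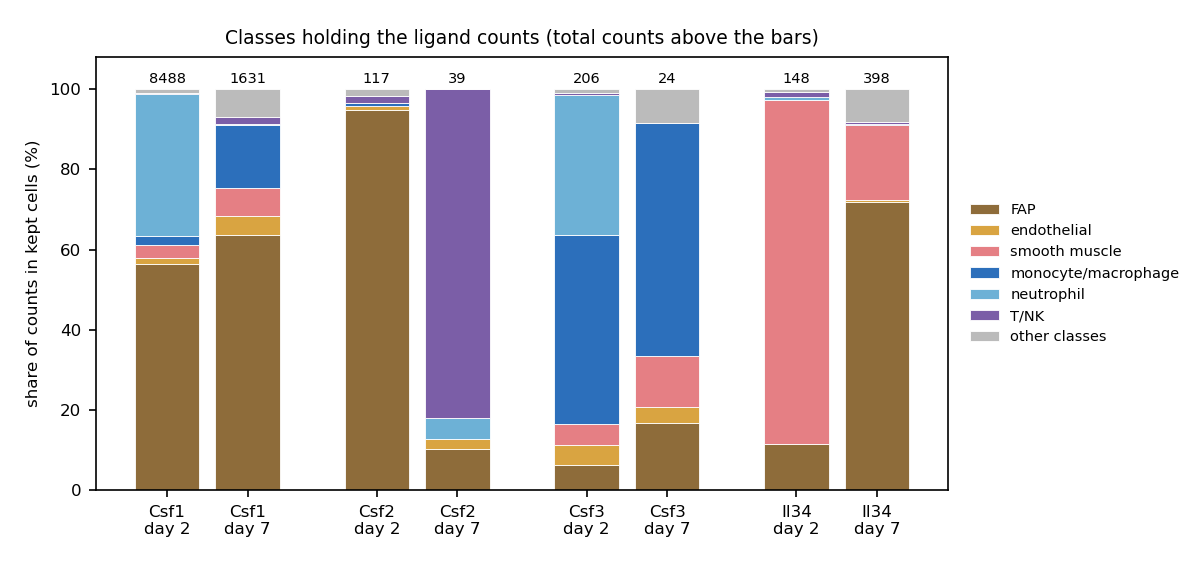
Share of all counts of each ligand in kept cells (vertical axis, %) held by each class, at day 2 and day 7, with the total counts above each bar. FAPs held 56.3% of Csf1 at day 2 and 63.5% at day 7; the bars of Csf2 and Csf3 rest on 24 to 206 counts.

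Among the receptors, Csf1r, which encodes the receptor of CSF-1 and IL-34, was examined first. Monocytes and macrophages held 328 CPM (320 to 337) at day 2 and 746 CPM (726 to 765) at day 7, with a log2 ratio of 1.18 (1.13 to 1.24). They held 90.0% of all Csf1r counts in kept cells at day 2 and 96.7% at day 7. A count was found in 1218 of 1292 cells at day 2 and 722 of 757 at day 7, at median depths of 11700 and 8546 counts, and after thinning in 48.0% and 73.7%. FAPs, the comparison for the receptors, had a count in 12 of 215 cells at day 2 and 37 of 805 at day 7, and after thinning in 0 of 213 cells, with an exact upper bound of 1.72%, and in 0.764%. Csf1r was higher at day 7 in each of the 6 monocyte and macrophage labels. Its highest level was in Cx3cr1_lo M2 macrophages at day 7, with 1030 CPM against 351 at day 2 (log2 ratio 1.55, 1.41 to 1.70). Cx3cr1_hi M2 macrophages held 393 and 822 CPM (1.06), M1 macrophages 319 and 745 CPM (1.23), patrolling monocytes 264 and 648 CPM (1.30) and Cxcl10+ monocytes 301 and 679 CPM (1.17). Inflammatory monocytes showed the smallest ratio, with 380 and 580 CPM (0.61, 0.42 to 0.79). At day 2 the levels of Cx3cr1_hi M2 macrophages and inflammatory monocytes were separated by less than their counting intervals.

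Dendritic cells, which present antigen, differed in the other direction. Csf1r was 129 CPM (114 to 145) at day 2 and 40.4 CPM (29.1 to 54.6) at day 7, with a log2 ratio of -1.67 (-2.17 to -1.20), with a count in 90 of 170 and 22 of 145 cells. Cells with at least 3 monocyte and macrophage marker counts were 155 of 170 at day 2 and 121 of 145 at day 7, and held Csf1r at 135 and 43.9 CPM, against 8.84 and 15.6 CPM in the rest from 1 and 2 counts, and their part in the result was not tested. The day 2 level stood above the 75.0 CPM of free RNA, whereas the day 7 level lay below the 142 CPM (132 to 153) of free RNA and is not read as expression. The dendritic marker list was at 10240 CPM at day 2 and 10600 at day 7, while Irf8, a transcription factor of monocytes and dendritic cells, was 191 and 1432 CPM in these cells (log2 ratio 2.91, 2.75 to 3.07), and whether the cells under this label were of the same kind on both days was not tested. Day 2 neutrophils held 137 CPM (121 to 155), in 184 of 708 cells, against 75.0 CPM in free RNA. The 305 neutrophils with at least 3 monocyte and macrophage marker counts held 152 CPM and the rest 122 CPM. In T/NK cells at day 7, 53 of 55 Csf1r counts lay in the 168 cells with at least 3 monocyte and macrophage marker counts, and those cells' part in the T/NK level was not tested. FAPs held 3.31 CPM at day 2 and 5.52 CPM at day 7, endothelial cells 4.54 and 2.98 CPM and Smooth Muscle cells 3.13 and 3.69 CPM, and none of these 3 ratios exceeded its counting error. Free RNA, at 75.0 and 142 CPM, lay above these stromal and vascular levels on both days. Csf1r, on chromosome 18 (61100598 to 61132149, plus strand), overlaps Hmgxb3 on the opposite strand.

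Csf2ra, the ligand-binding chain of the GM-CSF receptor, was 128 CPM (123 to 134) in monocytes and macrophages at day 2 and 235 CPM (224 to 246) at day 7, with a log2 ratio of 0.87 (0.78 to 0.97) that is within 2-fold. The mean over cells gave 0.63. At day 7 1 cell held 38 of the 1764 counts. In M1 macrophages the ratio was past 2-fold, with 123 and 254 CPM (1.05, 0.91 to 1.19), in patrolling monocytes it was 0.97 (0.76 to 1.19), and in inflammatory monocytes 0.69 (0.41 to 0.97). In Cx3cr1_hi and Cx3cr1_lo M2 macrophages and in Cxcl10+ monocytes the intervals hold 0, with ratios of 0.24, 0.24 and 0.42. Dendritic cells held 95.5 CPM (82.8 to 110) and 135 CPM (113 to 159), a ratio of 0.50 (0.18 to 0.81), and day 2 neutrophils held 168 CPM (151 to 188). At day 2 the order was therefore neutrophils, then monocytes and macrophages, then dendritic cells, with no overlap of intervals. FAPs held 3.31 and 5.03 CPM, and free RNA 52.7 and 57.2 CPM.

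Csf2rb, the signalling chain shared by the receptors of GM-CSF, IL-3 and IL-5, differed in the other direction from Csf1r and Csf2ra. In monocytes and macrophages it was 236 CPM (229 to 244) at day 2 and 118 CPM (111 to 126) at day 7, with a log2 ratio of -0.997 (-1.10 to -0.89), a 1.995-fold difference that lies just within 2-fold, while the mean over cells gave -1.20, which is past it. The share of cells with a count was 78.3% and 54.3%, and after thinning 34.5% and 18.6%. In FAPs the thinned shares were 0.470% and 0.255%. Csf2rb was lower at day 7 in each of the 6 monocyte and macrophage labels. The largest ratio was in inflammatory monocytes, with 437 CPM at day 2 and 129 CPM at day 7 (-1.76, -2.12 to -1.41), and the smallest in patrolling monocytes, with 201 and 138 CPM (-0.54, -0.78 to -0.30). Cxcl10+ monocytes had a ratio of -1.48, Cx3cr1_hi M2 macrophages of -1.23, M1 macrophages of -0.87 and Cx3cr1_lo M2 macrophages of -0.80. Dendritic cells held 394 CPM (368 to 421) at day 2 and 177 CPM (152 to 205) at day 7, a ratio of -1.15 (-1.39 to -0.92), and day 2 neutrophils held 484 CPM (454 to 516), in 452 of 708 cells. Free RNA held 114 CPM of Csf2rb at day 2 and 29.8 CPM at day 7.

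Csf2rb was also read outside the myeloid classes. Endothelial cells held 32.6 CPM (25.8 to 40.6) and 43.5 CPM (34.1 to 54.7), a ratio of 0.42 (-0.06 to 0.90). The 21 vein endothelial cells at day 7 held the highest endothelial level, 177 CPM (118 to 256), against 54.8 CPM in 12 cells at day 2. At day 2 the endothelial and Smooth Muscle levels lay below the 114 CPM of free RNA, and at day 7 their intervals overlapped that of its 29.8 CPM (25.2 to 35.0). In cells labelled Smooth Muscle it was 16.3 and 34.7 CPM (1.09, 0.65 to 1.54), but 83 of the 83 day 2 counts and 94 of the 94 day 7 counts lay in cells with at least 3 endothelial marker counts, which were 287 of 304 and 196 of 232 cells. In T/NK cells the level was 386 CPM at day 2 and 8.50 CPM at day 7 (-5.50, -6.30 to -4.79). Of the 140 day 2 counts, all of them in cells labelled as T cells, 139 lay in the 17 of 50 T cells with at least 3 basophil and mast cell marker counts, at 1891 CPM against 5.03 CPM in the other 33. The day 7 level lay below free RNA. Without the cells with such markers the T/NK ratio was 1.30. With CPM, the median log2 ratio was taken over the genes past a minimum count in the class on both days. It lay at -0.12 in monocytes and macrophages and at -0.14 in T/NK cells. A scaling on that median raised the ratios of both classes by that amount, and it reversed the direction of no member there.

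Csf2rb has a near-identical neighbour in mice, Csf2rb2, which encodes a beta chain used by IL-3. The 58-base windows of the last 1000 bases were compared because the kit reads transcript ends. In the longest transcripts of the pair 0 of 943 such windows were shared, whereas 15.3% to 15.8% of windows over the whole transcripts were. Some shorter transcripts shared up to 38.4% of their windows, so a part of the counts may be split between both genes. In monocytes and macrophages Csf2rb2 was 54.2 CPM at day 2 and 50.8 CPM at day 7, a ratio of -0.09 (-0.27 to 0.08).

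Csf3r, the G-CSF receptor, was chiefly a neutrophil transcript at day 2, with 939 CPM (896 to 983) in 575 of 708 neutrophils. The 677 neutrophils with at least 3 marker counts held 973 CPM and the other 31 held 205 CPM. Neutrophils held 79.0% of all Csf3r counts in kept cells at day 2. At day 7, when 10 cells bore the neutrophil label, monocytes and macrophages held 95.1% of 529 counts, and the 6 counts in cells labelled as neutrophils all lay in the 1 cell with at least 3 neutrophil marker counts. Within monocytes and macrophages Csf3r was 26.6 CPM (24.2 to 29.2) at day 2 and 66.9 CPM (61.2 to 73.0) at day 7, with a log2 ratio of 1.33 (1.14 to 1.52). A count was found in 339 of 1292 and 312 of 757 cells, and after thinning in 4.96% and 11.7%, against 0.939% of FAPs at day 2 and 0 of 785 FAPs at day 7, with an exact upper bound of 0.469%. The level was higher at day 7 in each of the 6 labels, with the largest ratio in patrolling monocytes, 15.5 and 64.2 CPM (2.05, 1.52 to 2.61), and the smallest in inflammatory monocytes, 40.9 and 68.3 CPM (0.74, 0.16 to 1.29). At day 7 the levels of the 6 labels lay between 64.2 and 90.6 CPM with overlapping intervals. The 98 day 2 monocytes and macrophages with at least 3 neutrophil marker counts held 27.2 CPM and the rest 26.6 CPM, and the 6 such cells at day 7 held 54.8 CPM and the rest 67.2 CPM. Dendritic cells held 1.86 and 4.81 CPM. Free RNA held 32.4 CPM (26.4 to 39.5) at day 2, not exceeded by the level in monocytes and macrophages, and 13.1 CPM at day 7, below it.

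**Figure D4:**
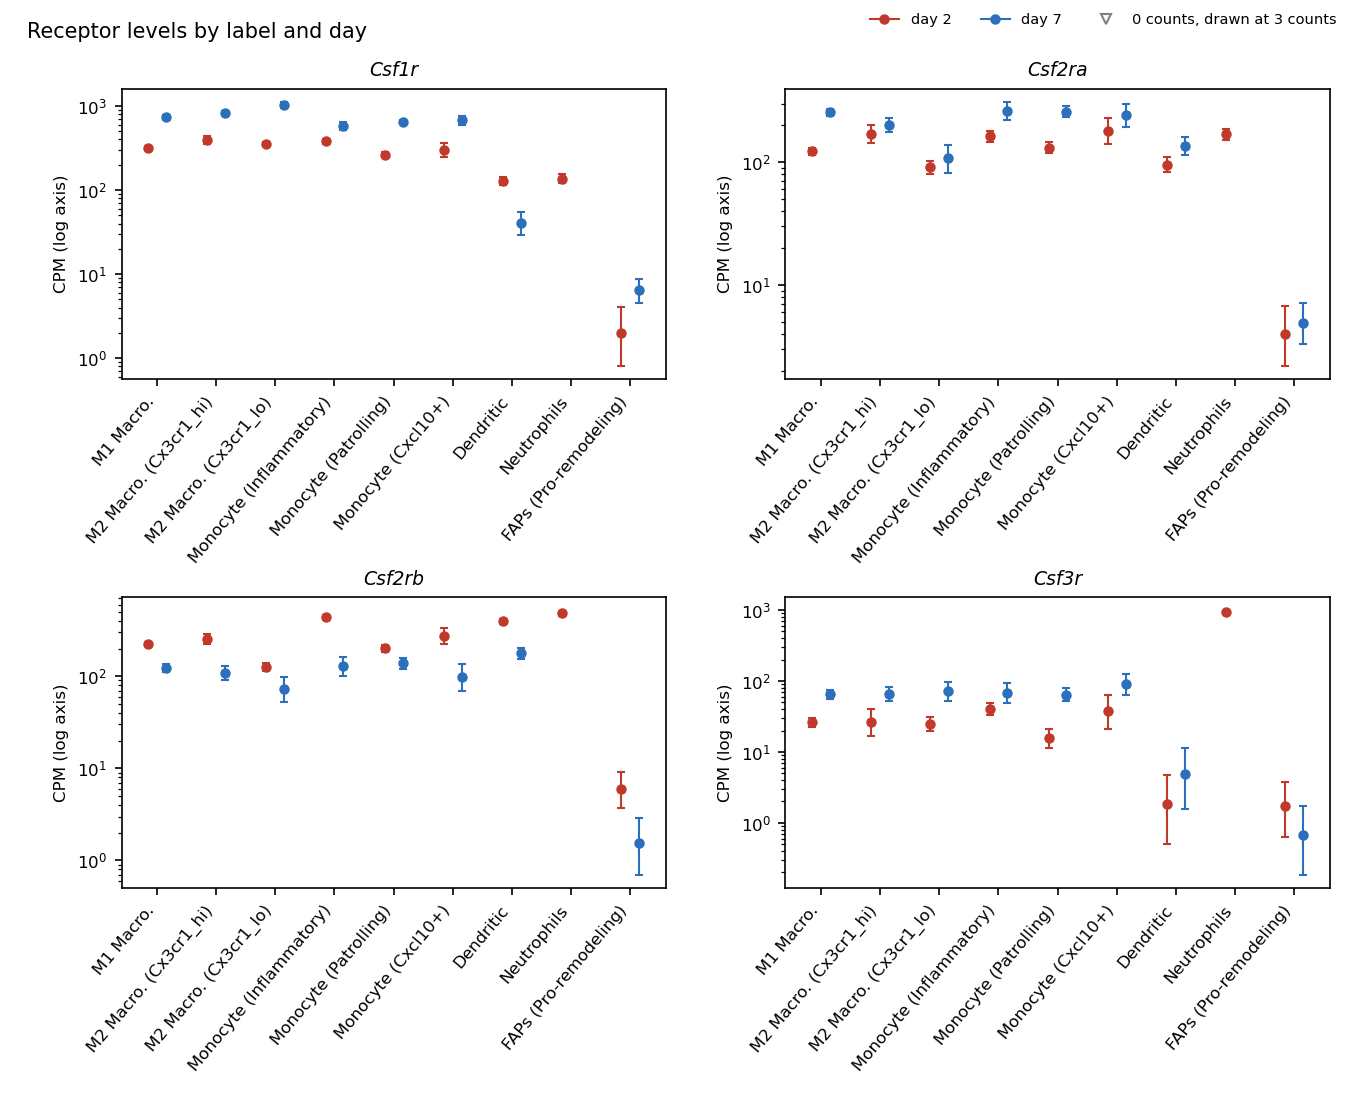
CPM (log axes) of the 4 receptor genes in 6 monocyte and macrophage labels, dendritic cells, neutrophils and pro-remodeling FAPs at day 2 (red) and day 7 (blue), with exact Poisson intervals; the 10 day 7 neutrophils are left out. Csf1r and Csf3r were higher and Csf2rb lower at day 7 in each of the 6 monocyte and macrophage labels.

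Receptors were also counted together within single cells. Both chains of the GM-CSF receptor, Csf2ra and Csf2rb, were detected in 763 of 1292 monocytes and macrophages at day 2 (59.1%) and in 325 of 757 at day 7 (42.9%). After thinning the shares were 7.36% (6.00 to 8.93) and 6.91% (5.20 to 8.96), beside 7.03% and 5.68% given by multiplying the shares of the chains. In dendritic cells both chains were found in 58.2% and 31.7% of cells, and in neutrophils at day 2 in 23.9%. After thinning the dendritic shares were 8.82% and 6.94%, beside 9.24% and 7.14% given by multiplying. The thinned neutrophil share was 16.2%, beside 17.1%, and so above that of day 2 monocytes and macrophages. Csf1r and Csf3r were found together in 25.2% of monocytes and macrophages at day 2 and 40.7% at day 7, and in 20.2% of day 2 neutrophils. After thinning, the monocyte and macrophage shares were 2.56% and 9.03%, beside 2.38% and 8.61% given by multiplying. The thinned share of day 2 neutrophils was 15.3%, beside 15.9%, and so above that of day 2 monocytes and macrophages. At day 2 the Csf3r level of monocytes and macrophages, 26.6 CPM, did not exceed the 32.4 CPM of free RNA, and co-detection is not read as expression there. FAPs had both chains of the GM-CSF receptor in 2.79% of cells at day 2 and 0.124% at day 7, and after thinning in 0 of 213 and 0 of 785 cells. Both chains lay below free RNA in FAPs on both days, and their co-detection there is not read as expression. Among the 708 day 2 neutrophils, Csf1 was detected together with Csf3r in 419 cells, with Csf1r in 141 and with Csf3 in 19. In the 537 of them deep enough to be thinned, Csf1 and Csf3r met in 53.5%, beside 55.5% given by multiplying their shares, and Csf1 and Csf1r in 15.3%, beside 16.2%.

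The members' day ratios were then set against those of all genes with at least 20 counts over both days in a class. In FAPs 25.6% of 11851 genes were more than 2-fold higher and 14.0% more than 2-fold lower at day 7. Of the 8 members 6 had enough counts there, without Csf3 and Csf3r, and of these Il34 was higher and Csf1, Csf2 and Csf2rb were lower. The Csf2rb level in FAPs, 6.23 and 1.96 CPM from 32 and 16 counts, lay below the 114 and 29.8 CPM of free RNA on both days and is not read as expression. In monocytes and macrophages 19.3% of 11318 genes were past 2-fold higher and 12.8% lower, and of the 6 members with enough counts, without Csf2 and Il34, Csf1, Csf1r and Csf3r were higher, Csf3 was lower, and Csf2ra and Csf2rb lay within 2-fold. In endothelial cells 14.9% of 9616 genes were higher and 9.50% lower, and 0 of the 2 members with enough counts, Csf1 and Csf2rb, were past 2-fold in either direction. In Smooth Muscle cells 14.1% of 11039 genes were higher and 7.86% lower, and of the 6 members with enough counts Csf2rb was higher and Csf3r was lower (20 and 5 counts, with an interval that holds 0 and levels of 3.92 and 1.845 CPM, below free RNA on both days). In dendritic cells 13.6% of 8138 genes were higher and 8.44% lower, and of the 4 members with enough counts 0 were higher while Csf1r and Csf2rb were lower. The median ratio of the members tested was -0.53 in FAPs and 1.03 in monocytes and macrophages, beside 0.21 and -0.02 over all genes tested, which with 6 members each is a description only.

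**Figure D5:**
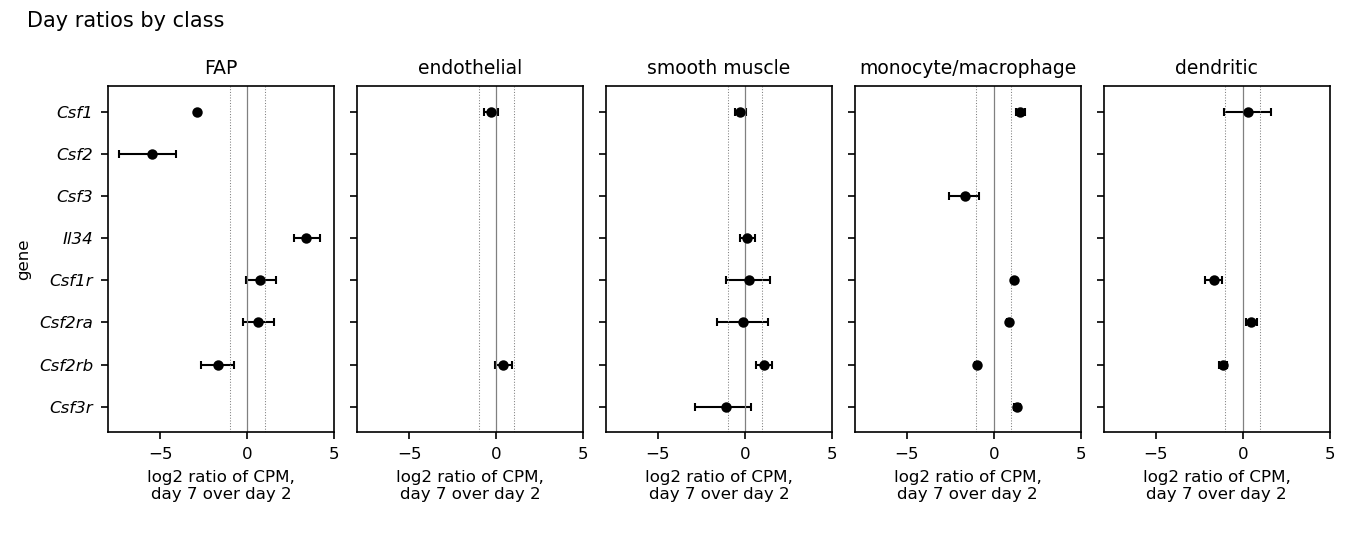
Log2 ratio of CPM, day 7 over day 2 (horizontal axis), of the members with at least 20 counts in 5 classes. Points are the ratio of 1 library to 1 library, bars exact binomial intervals for counting error, and dotted lines mark 2-fold. In FAPs Csf1 lay at -2.87 and Il34 at 3.41, and in monocytes and macrophages Csf1r lay at 1.18 and Csf2rb at -0.997.

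The wider pathway was read from a list of 43 genes, all present in the table, that holds the relatives of the beta chain, other IL-34 binding proteins, signalling and feedback genes, myeloid transcription factors and inducers of colony-stimulating factors. In FAPs 34 of them were tested, of which 7 were past 2-fold higher at day 7, 6 lower and 21 within, beside 25.6% of all genes higher and 14.0% lower. The beta chain relatives had 2 higher of 2 tested, and the inducers had 0 higher and 5 lower of 6 tested out of 8 listed, with a median ratio of -2.32. Il6, an inflammatory cytokine, was 579 and 62.2 CPM (-3.22), Nfkb1, an NF-kB subunit, 806 and 133 CPM (-2.60), and Nfkbia, its inhibitor and target, 720 and 176 CPM (-2.03). At day 2 these 3 levels stood above free RNA, which held 96.6 CPM of Il6, 180 of Nfkb1 and 304 of Nfkbia. The other 2 lower inducers stood below free RNA on both days and are given as values only. Il1b, which encodes IL-1 beta, was 36.8 CPM at day 2 and 3.44 at day 7 in FAPs, with 620 and 138 CPM in free RNA, and 130 of its 189 day 2 counts lay in the 51 FAPs with at least 3 monocyte and macrophage marker counts. Tnf was 4.68 and 2.09 CPM in FAPs, with 53.4 and 43.5 CPM in free RNA. Rela, another NF-kB subunit, was 42.7 and 40.7 CPM (-0.07). The higher beta chain relatives were Il3ra, the IL-3 receptor alpha chain, at 20.5 and 73.0 CPM (1.84) and Csf2rb2 at 0.974 and 15.8 CPM (4.02), the latter below the 36.7 and 25.0 CPM of free RNA on both days. Among 12 signalling genes only Pik3cd, a phosphoinositide 3-kinase subunit, was past 2-fold, at 3.12 and 7.12 CPM, below its 17.7 and 23.0 CPM in free RNA, with Jak2 at a ratio of -0.51 and Stat3 at -0.43, and 0 of 5 feedback genes were. Of the transcription factors, Maf was among those past 2-fold higher in FAPs, at 8.96 and 77.55 CPM (3.11). Free RNA held 50.1 and 61.2 CPM of Maf, and the lower bound of the day 7 level in FAPs, 71.6 CPM, stood above the upper bound of free RNA, 68.5 CPM. The 80 day 7 FAPs with at least 3 monocyte and macrophage marker counts held it at 74.3 CPM against 78.1 CPM in the rest. Irf8 had 19 counts at day 2 and 140 at day 7 in FAPs, and its 17.2 CPM at day 7 lay below the 110 CPM of free RNA, as did its level at day 2 (25.5 CPM in free RNA), so it is given as values only. Cebpb was lower, at 817 and 221 CPM (-1.89), beside 694 and 230 CPM in free RNA. Sdc1, a proteoglycan that binds IL-34, was 27.5 and 63.6 CPM (1.21).

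In monocytes and macrophages 38 of the 43 were tested, of which 4 were higher and 5 lower, beside 19.3% of all genes higher and 12.8% lower. Irf8, a monocyte and dendritic cell transcription factor, was 104 CPM at day 2 and 428 at day 7 (2.04), Dusp6, a feedback phosphatase of the ERK pathway, 13.5 and 37.1 CPM (1.46) and Ptpn6, a phosphatase that restrains receptor signalling, 123 and 256 CPM (1.06), and all 3 stood above free RNA at day 7. Irf4 was past 2-fold as well, at 2.43 and 7.31 CPM, which did not exceed the 2.29 and 7.65 CPM of free RNA. Cebpb was lower, at 2111 and 608 CPM (-1.80), as were Cebpe (5.945 and 1.995 CPM, with 5.24 CPM in free RNA at day 2), Sdc1 (-1.53) and Socs3, a suppressor of cytokine signalling (170 and 84.8 CPM, -1.002). The last of the 5 lower was Il6, at 4.97 and 2.39 CPM, which lay below the 96.6 and 26.8 CPM of free RNA and is given as values only. Spi1, which encodes PU.1, was 302 and 474 CPM (0.65), and Csf1r's adaptor partner Tyrobp was 2261 and 3314 CPM (0.55). In endothelial cells 29 were tested, with 1 higher and 7 lower, beside 14.9% of all genes higher and 9.50% lower. Of these 8, Jak2 alone stood above free RNA on the day of its higher level, at 135 and 56.6 CPM (-1.25) beside 56.3 and 40.9 CPM in free RNA. Sdc1 was the higher (3.30 and 11.3 CPM), and the lower genes also held Il6, whose 110 CPM (96.9 to 124) at day 2 overlapped the 96.6 CPM (85.9 to 108.3) of free RNA, and Il1b, Tyrobp, Spi1, Runx1 and Cebpb, whose levels lay below free RNA on both days. In Smooth Muscle cells 32 were tested, with 1 higher and 5 lower, beside 14.1% of all genes higher and 7.86% lower. Socs2 (1.62) was higher and Runx1 (-2.31) and Il6 (-2.08) were lower, and all stood above free RNA on the day of their higher level. The other 3 lower, Cebpb, Pik3cd and Tyrobp, did not. In dendritic cells 36 were tested, with 4 higher and 4 lower, beside 13.6% of all genes higher and 8.44% lower. Irf8, Cebpa (34.0 and 79.9 CPM, 1.23) and Tnf (15.8 and 72.2 CPM, 2.19) were higher and stood above free RNA at day 7, whereas Socs1 (7.45 and 16.4 CPM) was higher but did not. Il1b (2145 and 649.5 CPM, -1.72) and Cish, a feedback inhibitor induced by STAT5 (71.7 and 34.6 CPM, -1.05), were lower and stood above free RNA at day 2, whereas Cebpb and Dusp6 did not. In day 2 neutrophils, where Csf1 stood highest, Il1b was 7812 CPM, Tnf 804 CPM and Nfkb1 752 CPM.

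The genes most like each member over cell types were named by Pearson's r of log2(CPM + 10) over 41 sums, each a label on a day with at least 20 cells, among 11230 genes. Those sums share 2 libraries and differ in depth, so r is a description. Csf1 lay closest to Cxcl1 (0.81), Tnfaip6 (0.75) and F3 (0.75), and Csf3 to S100a8 (0.83), Wfdc21 (0.82) and Mrgpra2b (0.81). Il34 lay closest to Nr2f1 (0.93), Sema5a (0.89) and Map1a (0.88). Csf2 had low values throughout, with Sh2d1a (0.62), Lif (0.59) and Dtl (0.59). Csf1r lay closest to AF251705 (0.97), Lyz2 (0.97) and P2ry6 (0.96), and Csf2ra close to Lrrc25 (0.96) and Milr1 (0.96). Csf2rb lay closest to Nrros (0.89), Csf2rb2 (0.89) and Il1b (0.86), and Csf3r to Clec5a (0.96), Dok3 (0.92) and Cd33 (0.92). Of the 24 genes this rule gave, 14 were given again with a pseudocount of 1 and 9 with labels of at least 50 cells. Among the members, Csf1r and Csf2ra had an r of 0.93, whereas Csf1 had -0.33 with Csf1r and Il34 -0.45.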

How the data were processed

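Dissociated tibialis anterior muscle was profiled with 10x Chromium v3, as 1 library per day. The deposited UMI counts per gene and barcode are whole numbers made by the authors with Cell Ranger (3.1.0 in the submitters' processing notes, 3.0.1 in the file headers) against mm10. The deposited SoupX tables hold estimated counts after removal of free RNA, and served for the limits on cells and as an alternative to the raw counts. Cell types came from the deposited annotation (Seurat 3.1.5 is listed in the notes). Cells were kept with a cell type and, in the SoupX values, a minimum of 750 genes and of 1000 transcripts and a mitochondrial share of 30% or less, and no doublet caller was run here. The counts were summed per label and per class. Levels are CPM with exact Poisson intervals, day ratios have exact conditional binomial intervals, and shares of cells have Clopper-Pearson intervals, all at 95% and for counting error only, with depths as in the report. Ratios past 2-fold were called among genes with at least 20 counts over both days in a class, a count under 3 being taken as 3. Cells were thinned to 2000 counts for shares. Genes were named if they were members, in the pathway list, or among the 3 genes most like a member with at least 100 counts (compared over genes with at least 200 counts). A few genes that these rules gave are not reported here. The members and lists were chosen with earlier results of these data known. Python 3.11.15, numpy 2.4.6, scipy 1.17.1, pandas 2.3.3 and matplotlib 3.10.9 were used, and the fold calls were tested on simulated data. Alternatives were other cell limits, removal of cells with markers of another compartment, SoupX values, means over cells and median scaling, and 3 more were chosen after seeing the data.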

Additional observations from a re-analysis of the deposited data

Results flagged for a closer look

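For 3 members the day ratios went in opposite directions in different classes with intervals that leave out 0 on both sides, and none of these differences was tested, since each class had 1 library per day. The log2 ratio of Csf1 was 1.52 in monocytes and macrophages and -2.87 in FAPs, a difference of 4.40, where free RNA held 135 CPM of Csf1 at day 2 and 31.0 CPM at day 7 against 11.7 and 33.6 CPM in monocytes and macrophages. The log2 ratio of Csf1r was 1.18 in monocytes and macrophages and -1.67 in dendritic cells, a difference of 2.85, where free RNA held 75.0 and 142 CPM of Csf1r against 129 and 40.4 CPM in dendritic cells, in which Irf8 was 191 CPM at day 2 and 1432 CPM at day 7. The log2 ratio of Csf2rb was 1.09 in cells labelled Smooth Muscle and -0.997 in monocytes and macrophages, a difference of 2.09, where free RNA held 114 and 29.8 CPM of Csf2rb against 16.3 and 34.7 CPM in the Smooth Muscle cells, whose 83 and 94 counts all lay in cells with at least 3 endothelial marker counts. Those cells were 287 of 304 and 196 of 232, with median depths of 13600 and 10820 counts against 4677 and 2744 in the rest, so most counts of any gene would lie in them. Opposite ratios of Csf2 (-5.46 in FAPs, 1.46 in T/NK cells) and of Csf3r (-1.09 in Smooth Muscle cells, 1.33 in monocytes and macrophages) each had a side whose interval holds 0.

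Members were also counted in the called barcodes that the annotation leaves out, 1299 at day 2 and 1473 at day 7, which enter no comparison. At day 2 the ligands lay there at 266 CPM for Csf1, 0.934 CPM for Csf2, 6.85 CPM for Csf3 and 3.74 CPM for Il34. The receptors lay at 144 CPM for Csf1r, 60.7 CPM for Csf2ra, 134 CPM for Csf2rb and 35.8 CPM for Csf3r. At day 7 Csf1 lay there at 28.7 CPM, Csf2 at 4.82 CPM from 21 counts in 3 barcodes, Csf3 at 0.459 CPM from 2 counts and Il34 at 9.64 CPM. The receptors lay at 159 CPM for Csf1r, 43.4 CPM for Csf2ra, 33.3 CPM for Csf2rb and 20.2 CPM for Csf3r.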

How the results depend on the processing

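With 1 library per day no replicate could be left out, and depth limits Csf2, Csf3 and every level resting on few counts. No paired analysis was possible because each day has 1 library and no test was run. Of 206 alternative day ratios, 190 moved by less than their counting interval, 15 moved by more and 1 was reversed, while 28 of 80 shares of cells and 8 of 80 levels moved, and the causes were not tested unless stated. Of the alternatives for the share of ligand counts held by a class, 20 of 48 moved. So did 4 of 6 alternative counts of pathway genes in FAPs, endothelial cells and monocytes and macrophages. The reversed value was Csf2rb in T/NK cells, 1.30 without cells holding basophil and mast cell markers, an alternative chosen after seeing the data, as was Csf2 in FAPs without its top 3 cells, at -2.61. Median scaling gave 1.30 for Csf1r, 0.99 for Csf2ra and -0.88 for Csf2rb in monocytes and macrophages, and the mean over cells gave 0.63 for Csf2ra and -1.20 for Csf2rb. The share of Csf1 counts held by FAPs at day 2 was 53.3% with no limits on cells and 70.4% with stricter ones. Without cells holding markers of another compartment, FAPs held 70.7% of Csf1 and 87.2% of Il34 at day 7, and Smooth Muscle cells 51.4% of Il34 at day 2. Monocytes and macrophages held 60.6% of Csf3 at day 2 with stricter limits. With classes of at least 20 cells weighted equally, FAPs held 32.0% of Csf1 and 75.8% of Csf2 at day 2 and 31.8% of Csf1 and 23.1% of Il34 at day 7. T/NK cells held 93.3% of Csf2 at day 7, and at day 2 Smooth Muscle cells held 72.7% of Il34 and monocytes and macrophages 7.89% of Csf3. With smaller classes included, an alternative also chosen after seeing the data, FAPs held 28.95% of Csf1 at day 2 and 18.2% at day 7, T/NK cells 16.1% of Csf2 at day 7 and Smooth Muscle cells 50.4% of Il34 at day 2, where 10 cells labelled as neutrophils with 7 Csf1 and 2 Csf2 counts and 9 neural cells with 1 Il34 count weighed as much as the larger classes, and the other shares kept their values. A 4-fold limit left 8 pathway genes in FAPs, 1 in endothelial cells and 1 in monocytes and macrophages, against 13, 8 and 9, and a minimum of 100 counts left 3 in endothelial cells, since fewer genes were tested. The 4-fold limit also left 3 in Smooth Muscle cells and 2 in dendritic cells, against 6 and 8.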

Other observations

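Csf2rb2, the beta chain next to Csf2rb, was read in FAPs at day 7 with 129 counts in 71 of 805 cells, or 15.8 CPM (13.2 to 18.8), against 5 counts in 5 of 215 cells at day 2. Most of these counts lay in adipogenic FAPs, which held 87 counts and 52.8 CPM (42.3 to 65.2) at day 7 and 1 count at day 2. Pro-remodeling FAPs held 6.11 CPM (4.28 to 8.46) and stem FAPs 9.79 CPM (3.59 to 21.3) at day 7, and their intervals overlap each other but not that of the adipogenic FAPs. Free RNA held 25.0 CPM of Csf2rb2 at day 7 and 36.7 CPM at day 2. In vein endothelial cells Csf2rb2 was 62.1 CPM (36.2 to 99.4) in 12 cells at day 2 and 133 CPM (82.2 to 203) in 21 cells at day 7, with overlapping intervals, while capillary endothelial cells held 8.09 and 2.25 CPM. Of the 77 Csf2rb2 counts in cells labelled as T cells at day 2, all lay in the 17 cells with at least 3 basophil and mast cell marker counts.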
